A study of Mus musculus with 96 samples.

Results

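Interferon-stimulated genes are the genes that cells switch on in answer to interferon. This report follows 40 genes listed under that name, regulators of the response among them, through 2 time courses of mouse fibroblasts leaving serum starvation. The genes were taken from a list of 41 symbols, namely interferon regulatory factors, RNA sensors, antiviral effectors, the Isg15 pathway, interferon-induced membrane proteins and GTPases, the Parp9 group and antigen presentation genes. Of these symbols 40 have a row in the table of 15895 rows, and Ifi27 was not analysed here because no row carries that symbol. The genes were picked by symbol, with no cut on a measured value, but with earlier results of these data known. The cells were primary embryonic fibroblasts (MEFs) of CF-1 mice at E13, held for 36 h in 0.5% fetal calf serum (FCS) and then given serum to 20%. All libraries share the starvation, those at -1 h and 0 h were taken before serum was added, and no gene was altered in any of them. Sampling began at -1 h in both time courses and ended at 38 h in Cycle 1 (63 libraries used here) and at 27 h in Cycle 2 (32 libraries). Each time point of a Cycle is 1 library, and the labels do not say whether the Cycles came from separate embryos or cultures.

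The files hold values normalised by the authors to a common total, in which 1 read was worth 0.69 to 1.97, which puts the libraries at 5068424 to 14492754 reads (median 10834236). The starved state is the mean of the -1 h and 0 h libraries of a Cycle. The 0 h libraries, labelled as taken just before serum, held high levels of the immediate early gene Fos, at 24883 against 914 at -1 h in Cycle 1 and at 15148.5 against 466 in Cycle 2. The counts of genes called in each window after serum were therefore repeated with the -1 h libraries alone as the starved state, and each stayed within 1 gene of the count given here. Fibroblast markers were strong, with all 10 measured and a summed value between 403611 and 569390 in the 4 starved libraries. Macrophage markers were present at a low level, led by Lyz2 (10 of 11 measured). Their summed value was 1252 to 1320 in starved Cycle 1 and 3670 to 3679 in starved Cycle 2. The lymphoid marker Cd3e was at 0 in all starved libraries, and the 3 lymphoid markers with a row summed to between 0 and 6.01. Endothelial and epithelial markers, 7 of each with a row, had summed values of 221 to 300 and of 157 to 395 in these libraries.

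Type I interferon binds a receptor of the chains Ifnar1 and Ifnar2, and the kinases Jak1 and Tyk2 then phosphorylate STAT proteins such as Stat2. Stat2 and Irf9 act in the complex ISGF3, which binds interferon-stimulated response elements in the promoters of the target genes. Irf3 and Irf7 are activated below the sensors of viral RNA and drive the interferon genes themselves, while Irf1 and Irf2 act on overlapping elements as an activator and mainly a repressor. Fibroblasts are a classical source of type I interferon, and most cells keep a low level of the target genes without added interferon.

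Many of the genes lie in clusters. In the mm9 build, which the authors used, Ifit2, Ifit3 and Ifit1 lie in a single stretch of chromosome 19 (chr19:34625184-34724499), Gbp7, Gbp3 and Gbp2 on chromosome 3 (chr3:142193302-142300972), Oas2 and Oas1a on chromosome 5 (chr5:121180342-121357536), Mx1 and Mx2 on chromosome 16 (chr16:97668642-97782506) and Ifitm2, Ifitm1 and Ifitm3 on chromosome 7 (chr7:148140736-148196669). Tap1 lies between H2-K1 and H2-D1 on chromosome 17 (chr17:34132962-35404444). The divergent pair Dtx3l and Parp9 overlap at their starts, and reads were counted on both strands, so reads from the shared bases cannot be told apart. H2-K1 and H2-D1, Oas1a and its neighbouring copies, and the Ifit and Gbp paralogs are similar in sequence, and their split is uncertain to that extent.

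RefSeq promoters (GRCm38.p6, 250 bases before to 50 after a gene's start) were found for 33 of the 40 genes. The core of the response element, GAAA followed by any 2 bases and again GAAA, was searched on both strands (on the other strand it reads TTTC, any 2 bases, TTTC), and it was present in 16 of the 33, or 48.5%, against 3.99% of all 27025 symbols with a promoter. The motif TTCNNNGAA, the core of the gamma-activated site and its own reverse complement, was present in 9 of the 33 (27.3%) against 9.55% of all symbols. A match is a description of the letters in this window and shows no binding. The 6 genes below hold the response element core wholly before their start and were at least 4-fold lower in starved cells of Cycle 2 than of Cycle 1, which is why they are shown. Each line gives 40 bases 5′ to 3′ on the strand of the gene, with 1 match to the motif or its reverse complement in capitals. The Isg15 and Gbp3 lines hold further overlapping matches that are not fully in capitals. The lines come from chr19:34640789-34640828 (Ifit1, plus strand), chr19:34583392-34583431 (Ifit3, plus), chr3:142559990-142560029 (Gbp3, plus), chr4:156200860-156200899 (Isg15, minus), chr12:26456548-26456587 (Rsad2, minus) and chr3:142530268-142530307 (Gbp7, plus) of GRCm38.p6.
Ifit1: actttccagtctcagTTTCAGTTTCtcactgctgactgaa
Ifit3: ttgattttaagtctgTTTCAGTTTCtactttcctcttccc
Gbp3: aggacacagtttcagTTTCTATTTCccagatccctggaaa
Isg15: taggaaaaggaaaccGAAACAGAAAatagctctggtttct
Rsad2: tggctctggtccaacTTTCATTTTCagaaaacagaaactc
Gbp7: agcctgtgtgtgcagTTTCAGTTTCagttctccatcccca

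Before serum was added, the genes were far higher in Cycle 1 than in Cycle 2. On the log2(value + 1) scale the largest differences were in Oas2, Ifit1, Ifit3, Gbp3 and Mx2, whose mean values were 9.42 to 12.4 times higher in starved cells of Cycle 1, and the low gene Mx1 had a ratio of 10.1. All 40 had a lower mean in starved Cycle 2, and 36 (90%) passed the test as lower, against 15.3% of all 15895 rows called lower (limma on log2(value + 1), 2 libraries against 2, adjusted p under 0.05). None was called higher (13% of all rows were), and at an unadjusted p under 0.05 37 were lower and none higher. The median difference, Cycle 2 minus Cycle 1, was -1.69 on the log2 scale for the 40 genes and -0.08 for all rows. In 37 of the 40 genes both libraries of Cycle 1 lay above both of Cycle 2, which held for 38.8% of all rows. A difference of over 8-fold was seen in 9 of the 40 genes and in 53 rows of the table, or 0.333%.

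Ifit1, which binds viral RNA that lacks the host cap and blocks its translation, stood at 1434 and 1458 in the -1 h and 0 h libraries of Cycle 1 and at 133 and 118 in those of Cycle 2. Neither pair overlapped the other, and the difference was -3.52 ± 0.09 (log2, SE, adjusted p = 0.002, limma). Oas2, an enzyme that makes the short oligoadenylates that activate RNase L, stood at 227 and 193 in Cycle 1 and at 19.1 and 14.8 in Cycle 2, a difference of -3.56 ± 0.21. Ifit3, a partner of Ifit1, stood at 618 and 559.8 in Cycle 1 and at 56.3 and 57.7 in Cycle 2. The guanylate-binding GTPase Gbp3 showed 552 and 537 against 60.1 and 51.9, and the dynamin-like GTPase Mx2, which restricts viruses, 389 and 408 against 46.7 and 37.9. The 2 libraries within a Cycle differed by little beside these gaps.

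**Figure D1:**
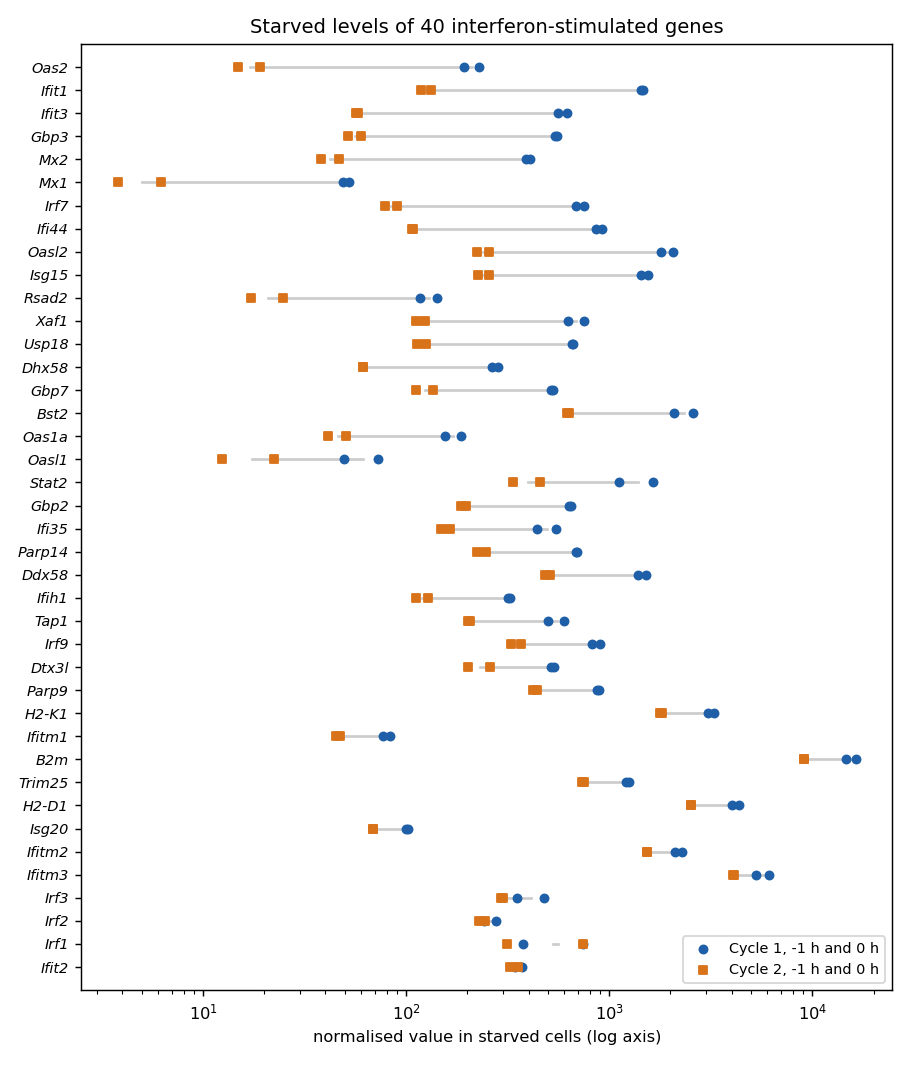
Normalised value (log axis) of each of the 40 genes in the 2 starved libraries of Cycle 1 (circles) and of Cycle 2 (squares), with a line joining the means and genes ordered by their difference. The pairs are farthest apart for Oas2 at the top, and those of Irf1, Irf2 and Ifit2 at the bottom overlap or nearly touch.

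The difference ran through every role. All 3 RNA sensors were lower in Cycle 2, namely Ddx58 (RIG-I), Ifih1 (MDA5) and Dhx58 (LGP2), with a median difference of -1.54. Of the 11 antiviral effectors 10 were lower. In the Isg15 pathway the ubiquitin-like modifier Isg15 (1559 and 1425 against 225 and 255), its protease Usp18 and the ligase Trim25 were all lower. The 3 Gbp GTPases and the 3 genes of the Parp9 group (the ADP-ribosyltransferases Parp9 and Parp14 and the ligase Dtx3l) were lower too, as were Ifi35, Ifi44 and Xaf1. The smaller shifts among the genes called included abundant membrane and antigen presentation genes. Ifitm3, which blocks virus entry at endosomes, stood at 6134 and 5284 in Cycle 1 and at 4070.3 and 4119 in Cycle 2. B2m, the light chain of MHC class I, stood at 16316.5 and 14682 against 9118 and 9096, a ratio of 1.70, and the heavy chain gene H2-D1 at 4344 and 4008 against 2522 and 2531.

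Among the regulators the genes split. Irf7 was 8.57 times higher in Cycle 1 (751 and 689 against 78.5 and 89.5, difference -3.09 ± 0.11, adjusted p = 0.002, limma). Stat2 (1644 and 1110.5 against 458 and 334) and Irf9 (895 and 819 against 365 and 326), which act together in ISGF3, were also lower in Cycle 2. Irf1, Irf2, Irf3 and Ifit2 did not pass the test. Irf1 was 374 and 740.4 in Cycle 1 and 312 and 742 in Cycle 2, so that each Cycle had a higher value at 0 h than at -1 h. Irf3 was 477 and 350.1 against 292 and 299, a difference of -0.47 ± 0.17. Ifit2 was 369.7 and 344 against 354 and 326, a difference of -0.07 ± 0.09, although it is a neighbour of Ifit1 and Ifit3 in the genome.

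These p-values cover only the spread between libraries taken 1 h apart within a time course, and the Cycle cannot be told apart from anything else that differed between the time courses. Without the -1 h or without the 0 h library of Cycle 2 no gene of the 40 and no row of the table was called by limma (0 of 15895), with 33 and 35 of the 40 genes lower at an unadjusted p under 0.05, and the differences of the 5 genes named first lay between -3.73 and -3.06. There the single remaining library is assumed to vary as the pair of the other Cycle does. Without either library of Cycle 1, 26 and 29 genes were called. Other features of the starved cells moved with the Cycle as well. Of 10 serum response and cell cycle genes, 7 were higher in starved Cycle 2, such as the cyclin gene Ccnb1 at 413 and 416 against 109.7 and 116. Of the macrophage markers 4 were higher and none lower in Cycle 2, of the fibroblast markers 2 were higher and 5 lower, and of the epithelial markers 6 of 7 were lower, with a summed value of 157 to 166 against 369 to 395. Of all rows 13% were higher and 15.3% lower, so that the share of fibroblast markers called higher is near that of all rows. The share of macrophage markers called higher and the shares of fibroblast and epithelial markers called lower are above those of all rows. The part of these features in the result was not tested. In bulk RNA, fewer cells expressing a gene and less RNA per cell cannot be told apart.

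Other parts of the pathway were compared from lists of genes outside the 40. Among the receptor and kinase genes, Tyk2 (258 and 269 against 164 and 165) and Ifngr2, a chain of the interferon gamma receptor (840.2 and 811 against 668 and 695), were lower in starved Cycle 2. The type I receptor genes differed less, with Ifnar1 at 1009 and 1109 against 1005 and 927 (difference -0.13, adjusted p = 0.283, limma) and Ifnar2 at -0.34 (adjusted p = 0.076, limma). Of 10 interferon ligand genes 2 had a row, Ifnb1 and Ifnz, and their summed value never passed 7.49. Neither was called between starved Cycles, and Ifnz was called higher after serum at 4 to 8 h (0.62) and 15 to 20 h (0.73), at values of at most 6.82. Of 13 sensors and adaptors with a row 2 were lower, the nucleic acid sensor gene Zbp1 and the kinase gene Ikbke, a share close to the 15.3% of all rows called lower, and 11 were not called. Of 11 negative regulators 2 were lower in Cycle 2, Socs1 (119 and 123 against 41.97 and 49.0) and Pias3 (-0.69), and 1 was higher, Ptpn11 (0.33). Both shares were near those of all rows (15.3% lower and 13% higher). Of 57 further interferon-stimulated genes 42 were lower and 1 higher in Cycle 2, with a median of -1.34, and of 15 further antigen presentation genes 11 were lower and 2 higher, beside 15.3% of all rows lower and 13% higher. These further lists were also drawn up with earlier results known, and their counts are a description.

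After serum, the genes ran far lower in Cycle 1 and changed less in Cycle 2. In Cycle 1 the median log2 change of the 40 genes against starved was -0.92 at 1 to 3 h, -2.38 at 4 to 8 h, -2.89 at 9 to 14 h, -3.15 at 15 to 20 h and -3.17 at 21 to 27 h. In Cycle 2 the same medians were -0.32, -0.19, -0.39, -0.59 and -0.92. The medians of all rows lay between -0.33 and -0.17 in Cycle 1 and between -0.20 and -0.08 in Cycle 2. By 3 h in Cycle 1, 26 of the 40 genes stood below 0.5 of their starved mean, and by 15 h 35 did. Of all rows 27.8% and 22.4% were that low at these hours, counted on the log2(value + 1) scale. In Cycle 2, 8 genes were below 0.5 at 3 h and 6 at 15 h, near the shares of all rows (16% and 12.1%). The highest number was 27 at 26 h (14.6% of all rows were). By the study's rule of a 2-fold change in some library, 39 genes were below 0.5 (67.8% of all rows were) and 8 were above 2 (40.9% of all rows were).

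**Figure D2:**
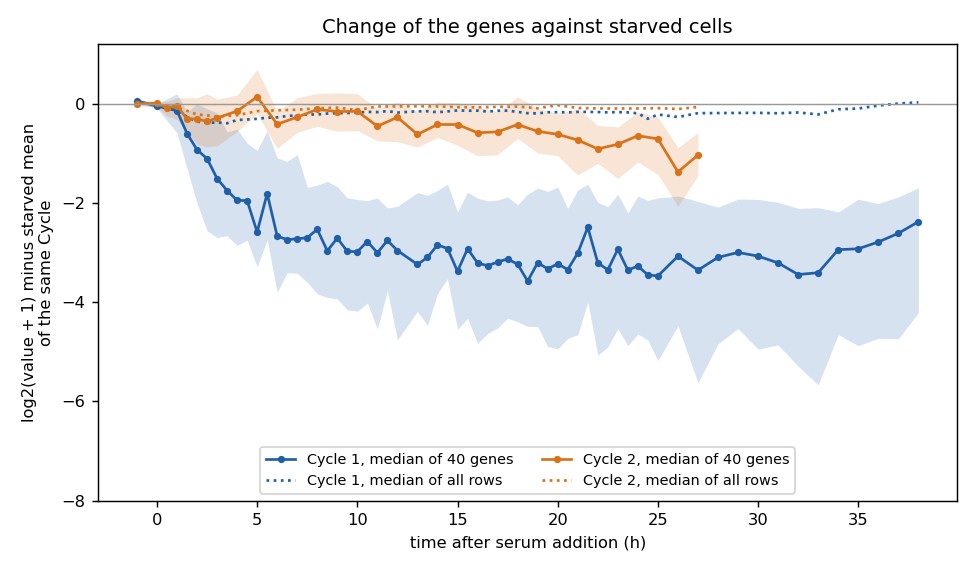
Median log2(value + 1) of the 40 genes minus the starved mean of the same Cycle (lines with circles, shaded from the 25th to the 75th percentile) and the median of all rows (dotted) against hours after serum. The Cycle 1 median is below -2 from 6 h on, and the Cycle 2 median is below -1 only at 26 and 27 h.

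The test over windows asks for a change that both Cycles share, with 1 mean per Cycle and window, so that a gene that fell in Cycle 1 alone does not pass. None of the 40 genes was called higher in any window (9.08%, 16%, 16.5%, 17.2% and 17.1% of all rows were, in order of time). At 1 to 3 h 3 genes were called lower (7.5%, against 27% of all rows), at 4 to 8 h 7 (17.5%, against 31.3%), at 9 to 14 h 15 (37.5%, against 26.4%), at 15 to 20 h 18 (45%, against 27.6%) and at 21 to 27 h 24 (60%, against 30.5%). At an unadjusted p under 0.05, 6, 11, 22, 27 and 30 genes were lower and none higher. TMM scaling, an alternative to the deposited scaling, raised the median change of all rows by 0.111 to 0.24 and left the counts of genes called close to these. With an F test over the 29 hours that both Cycles sampled and a log2 change above 1, 26 genes were called, all as lower, against 37% of all rows called lower and 15.5% higher. The share of the 40 genes thus lay below the background of falling rows in the early windows and above it from 9 h on.

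The genes called at 1 to 3 h were Ifit2, Irf1 and Irf3. Others had lower means in both Cycles by then without a call, such as Stat2 (-2.57 in Cycle 1 and -1.39 in Cycle 2, adjusted p = 0.0605, limma). Irf1, a transcription factor that serum and cytokines induce within an hour, went from 1228 at 1 h to 98.7 at 2 h in Cycle 1 and from 1442 at 1 h to 144 at 2 h in Cycle 2. Both time courses thus had their highest sampled value at 1 h and a drop within the next hour. Cycle 1 had no library between 0 h and 1 h, so the time of its peak cannot be placed. Its change against starved was -1.13 ± 0.23 at 1 to 3 h (adjusted p = 0.00904, limma) and -2.24 ± 0.23 at 4 to 8 h. With the -1 h libraries alone as starved, the change at 1 to 3 h was -0.57 and was not called (adjusted p = 0.113, limma). Ifit2 went from 369.7 and 344 in starved Cycle 1 to a lowest value of 59.7 at 2.5 h, and from 354 and 326 in Cycle 2 to 105 at 2 h. It then recovered to means of 233.6 ± 31.6 and 266 ± 25.9 at 15 to 20 h (SD over 6 hours of a Cycle). Irf3 fell to 153 in Cycle 1 and 145 in Cycle 2 at 2 h and was back at 437 ± 72.0 and 368 ± 25.8 at 9 to 14 h. Irf2 fell by less, with a change of -0.56 ± 0.12 at 21 to 27 h (adjusted p = 0.00993, limma).

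**Figure D3:**
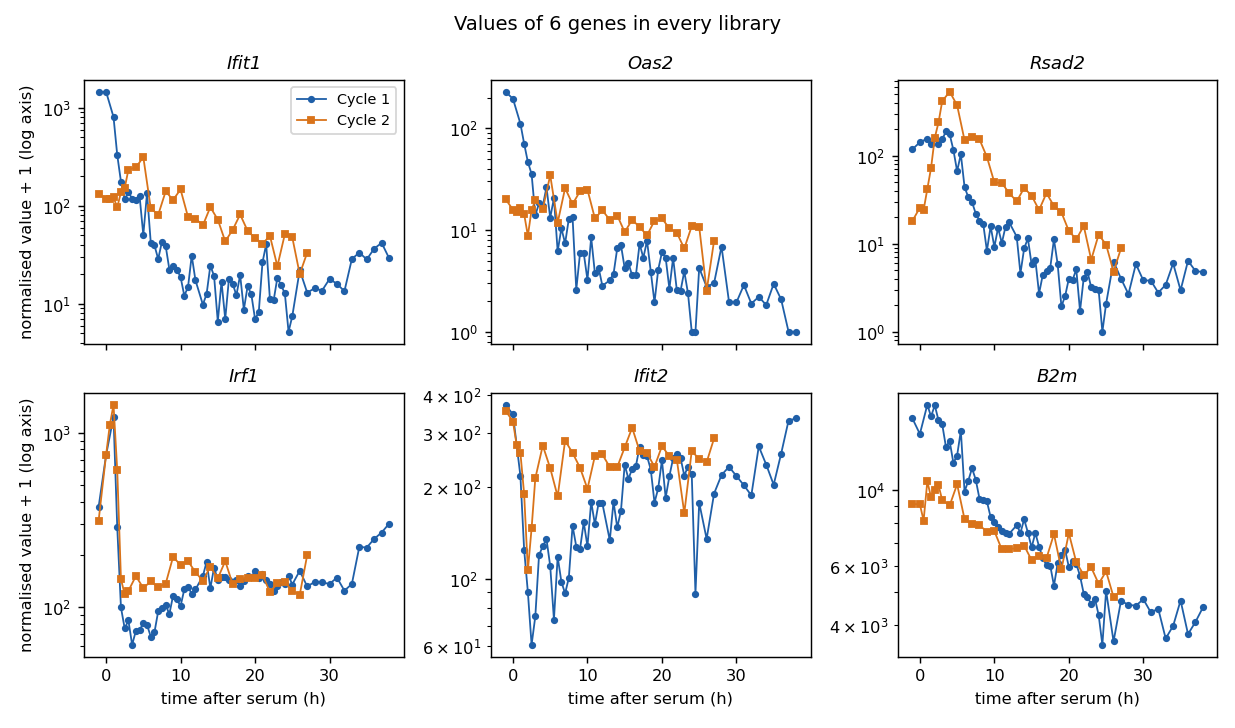
Normalised value + 1 (log axis) of Ifit1, Oas2, Rsad2, Irf1, Ifit2 and B2m in every library of Cycle 1 (circles) and Cycle 2 (squares) against hours after serum. Ifit1 and Oas2 start far apart and cross within 5 h, Rsad2 peaks at 4 h in Cycle 2, and Irf1 has its highest sampled value at 1 h in both Cycles.

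Stat2 and Irf9 were lower in both Cycles at 1 to 3 h, and later mainly in Cycle 1. Stat2 had means of 279.6 ± 209 at 1 to 3 h and 124 ± 23.0 at 4 to 8 h in Cycle 1, and of 154 ± 52.8 and 245 ± 56.5 in Cycle 2. Its change was -3.46 in Cycle 1 and -0.70 in Cycle 2 at 4 to 8 h, and the mean of both passed the test (-2.08 ± 0.69, adjusted p = 0.042, limma). That call was lost with TMM scaling (adjusted p = 0.0545, limma) and without the -1 h library of Cycle 2 (adjusted p = 0.0634, limma). Irf9 changed by -1.72 in Cycle 1 and by -0.97 in Cycle 2 at 1 to 3 h and by -2.42 and -0.01 at 9 to 14 h, and Irf7 by -5.11 and -0.65 at 21 to 27 h, and neither passed in any window. In all 61 libraries of Cycle 1 after serum Stat2 stayed below 0.5 of its starved mean, in Cycle 2 in 9 of 30.

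The deepest falls of single genes in Cycle 1 were among the antiviral effectors. As a group, their Cycle 1 median was -2.38 at 4 to 8 h and -5.30 at 15 to 20 h. The 3 GTPases had -3.41 and -5.11 there. In Cycle 2 the medians were 0.12 and -0.81 for the effectors and -0.51 and -1.04 for the GTPases. Ifit1 in Cycle 1 went from starved values of 1434 and 1458 to 807 at 1 h and 176 at 2 h, and to a mean of 10.9 ± 5.74 at 15 to 20 h, a change of -7.07. In Cycle 2 it went from 133 and 118 to 314 at 5 h and then to a mean of 58.5 ± 14.8 at 15 to 20 h, a change of -1.12. The mean of both changes was called at 15 to 20 h (-4.09 ± 1.36, adjusted p = 0.0434, limma) and at 21 to 27 h. Mx2 followed with -6.79 in Cycle 1 and -1.43 in Cycle 2 at 15 to 20 h (adjusted p = 0.0406, limma), and Ifit3 with -5.93 and -2.18 (adjusted p = 0.0209, limma). The Cycle 1 mean of Mx2 in that window, 2.91 ± 1.81, is close to the value of a few reads. Oas2 was called at 21 to 27 h alone (-6.31 and -1.23), where its Cycle 1 mean of 1.88 ± 1.05 is close to the value of a few reads. The fold of such low genes is understated by the added value of 1.

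Rsad2 (viperin), Mx1 and Oasl1 had a transient peak in Cycle 2, and they, Isg15 and Usp18 are described because of their values. Rsad2, a radical enzyme that makes a chain-terminating nucleotide, went in Cycle 2 from 17.2 and 24.7 in starved cells to 159 at 2 h, 416 at 3 h and 532 at 4 h, and back to 149 at 6 h and 48.7 at 10 h. In Cycle 1 it stayed between 135 and 188 from 1 to 4 h and was down at 17.2 at 8 h. The peak of Cycle 2 was 25.4 times its starved mean, and the highest ratio in Cycle 1 was 1.46. Oasl1 reached 127 at 4 h in Cycle 2 from 12.4 and 22.2, and Mx1 47.2 at 3 h from 3.82 and 6.18. Mx1 has a mean value under 10 over all libraries, and 1 read is a sizeable part of its low values. These peaks come from a single time course and have no replicate, and the mean change of both Cycles was not called for any of these genes at 1 to 3 h or 4 to 8 h (adjusted p between 0.373 and 0.987, limma). At 5 h in Cycle 2, 7 of the 40 genes stood above 2 times their starved mean, the highest number at any hour. That hour is a single library, and the number was 3 at 4 h and 3 at 6 h. The share of all rows above 2 was not counted by hour.

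Among the GTPases Gbp7 and Gbp2 were called lower, and in the Parp9 group all 3 genes were. Gbp7 was 528 and 513 in starved Cycle 1 and 30.8 ± 14.5 at 4 to 8 h, and 112 and 135 in starved Cycle 2 and 47.2 ± 7.97 at 4 to 8 h. Its change of -2.76 ± 0.83 was called (adjusted p = 0.0302, limma), and it stayed called in the later windows. Gbp2 was called at 9 to 14 h (-3.98 in Cycle 1, -1.35 in Cycle 2) and at 15 to 20 h, and Gbp3, the most different of these in starved cells, in no window. Parp9 and Dtx3l were called from 4 h on, and Parp14 from 9 h on. Isg15 and Usp18, in contrast, were called in no window: Isg15 changed by -4.35 in Cycle 1 and 0.12 in Cycle 2 at 15 to 20 h, and Usp18 by -4.28 and 0.18.

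The RNA sensors Ddx58, Ifih1 and Dhx58 were all called at 21 to 27 h and in no earlier window. Antigen presentation genes fell late and by less. B2m was 16816 ± 1017 at 1 to 3 h in Cycle 1 and 9993 ± 535 in Cycle 2, near its starved values, and 4754 ± 761 and 5519 ± 472 at 21 to 27 h, a change of -1.22 ± 0.26 (adjusted p = 0.00911, limma). H2-D1 and H2-K1 were called at 21 to 27 h, with H2-D1 at -1.11 in Cycle 1 and -0.33 in Cycle 2. Tap1, which carries peptides to the class I molecules, fell sooner, from 599.7 and 499.7 to 52.5 ± 16.1 at 4 to 8 h in Cycle 1 and from 202 and 206 to 109 ± 11.3 in Cycle 2 (-2.16 ± 0.57, adjusted p = 0.0184, limma). Ifitm3 was called at 9 to 14 h and 15 to 20 h, with -1.87 in Cycle 1 and -0.60 in Cycle 2 at 9 to 14 h.

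**Figure D4:**
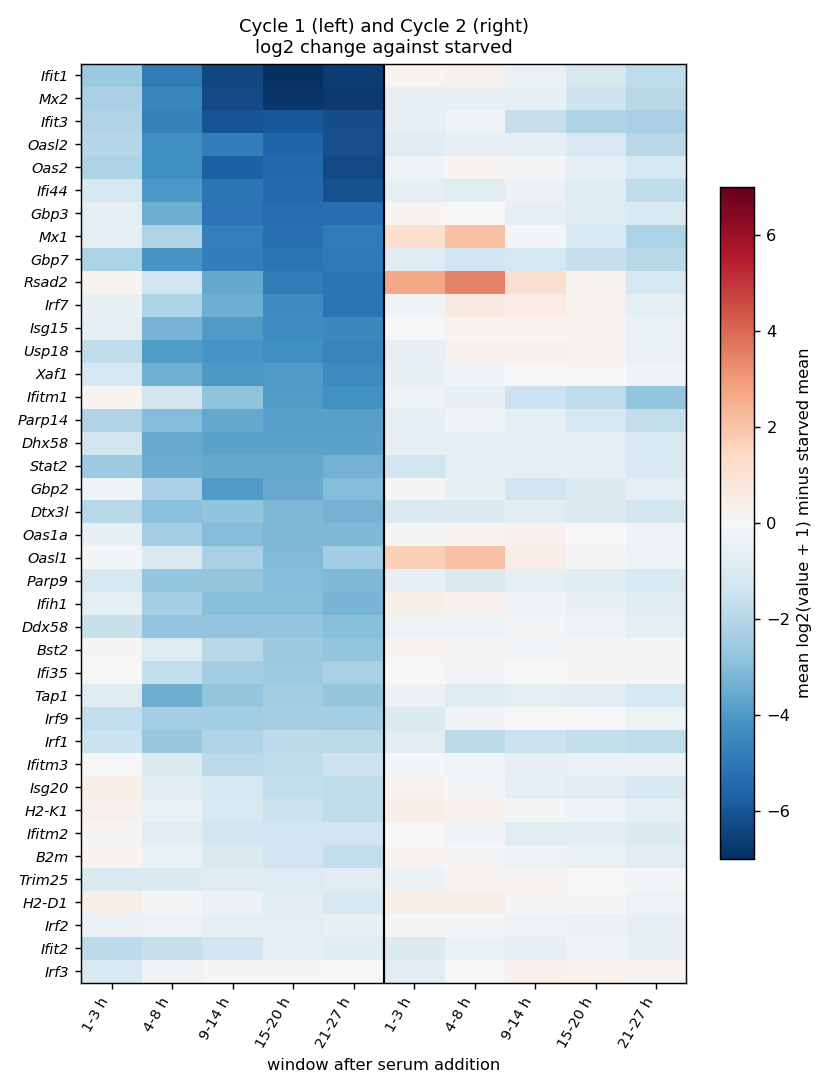
Mean log2(value + 1) of each window minus the starved mean, for the 40 genes (rows, ordered by Cycle 1 at 15 to 20 h) in Cycle 1 (left 5 columns) and Cycle 2 (right 5 columns), blue for lower and red for higher. The left side is blue down to -7.07 for Ifit1, and the right side is paler, with higher early values of Rsad2, Mx1 and Oasl1.

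The difference in response between the Cycles was tested on the hourly differences of the 31 hours that both sampled. It was called for 38 of the 40 genes, all with the Cycle 2 change higher, that is a smaller fall or a rise, against 22.8% of all rows called in that direction and 21.6% in the other (limma F test, adjusted p under 0.05). Irf2 and Irf3 were not called (adjusted p = 0.201 and 0.842, limma). Since neighbouring hours are not independent, these p-values are too small. The differences were largest for Ifit1 (5.95 at 15 to 20 h), Mx2 (5.77 at 9 to 14 h) and Oas2 (5.61 at 9 to 14 h), and the test is not independent of the starved difference, because both use the same starved libraries.

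The levels themselves crossed. At -1 h all 40 genes were higher in Cycle 1 and at 1 h 37 were, at 4 h 21 were higher in Cycle 1 and 19 in Cycle 2, and from 5 h on most were higher in Cycle 2 (34 at 5 h, 36 at 12 h and 38 at 18 h). Among all rows 42% to 54.3% were higher in Cycle 2 at any hour. With a window test on these differences, which was added after the values were seen, 2 genes were higher and 28 lower in Cycle 2 at 1 to 3 h (23.4% and 19.3% of all rows). At 4 to 8 h 20 were higher and 3 lower (15% and 11% of all rows), at 9 to 14 h 31 and 2 (16.1% and 16.7%), at 15 to 20 h 30 and 1 (12.8% and 16.6%), and at 21 to 27 h 27 and 1 (15% and 19.2%). Ifit1 was thus 1.65 ± 0.38 higher in Cycle 2 at 4 to 8 h and 2.43 ± 0.35 higher at 15 to 20 h (log2, adjusted p = 0.00168 and 6.41e-06, limma). Usp18 was 2.02 ± 0.25 higher at 9 to 14 h and Irf9 1.11 ± 0.13. The hours of a window come from 1 time course per Cycle and are not independent. The SE and p-values of this window test are therefore too small, and its counts rest on them. The genes called lower in Cycle 2 were B2m, H2-D1 and Bst2 at 4 to 8 h, B2m and H2-D1 at 9 to 14 h, and Irf3 in both later windows. Bst2 was called higher in Cycle 2 from 15 h on, and B2m at 21 to 27 h. At 26 h, where Cycle 2 values were lowest, 18 genes were higher in Cycle 1 and 22 in Cycle 2.

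**Figure D5:**
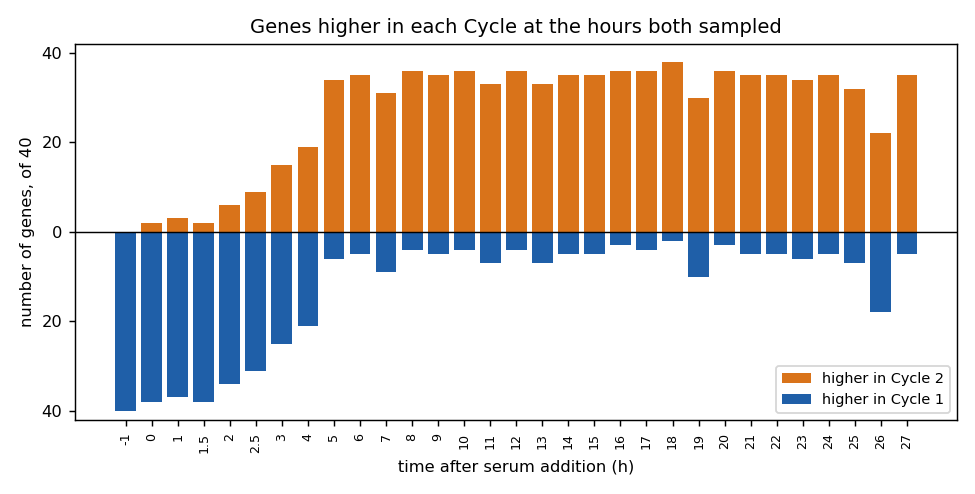
Number of the 40 genes with the higher value in Cycle 2 (upward bars) or in Cycle 1 (downward bars) at each of the 31 hours both Cycles sampled. The bars turn from 40 genes higher in Cycle 1 at -1 h to 34 higher in Cycle 2 at 5 h.

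Beyond 27 h only Cycle 1 was sampled, and the genes remained below their starved level. Over the libraries from 28 to 38 h the median change was -2.96, and 36 of the 40 were more than 2-fold below starved (21.8% of all rows were). The median went from -3.44 at 32 h to -2.38 at 38 h, while that of all rows went from -0.18 to 0.02. Stat2 went from 91.6 at 33 h to 375 at 38 h, Ddx58 from 192 to 467 and Gbp7 from 21.7 to 56.5, each hour being a single library. Ifit1 stood at 23.9 ± 10.2 there, Isg15 at 52.5 ± 13.4 and Irf7 at 17.9 ± 7.61. Ifit2 was the closest to its starved level among the effectors, at 243 ± 49.6 with a highest value of 333 at 38 h.

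Within each Cycle most of the genes moved alike over the 29 shared hours after serum. In Cycle 1 the Pearson correlation of a gene with the mean of the other 39 was highest for Isg15 (0.975), Ifi44 (0.97) and Oasl2 (0.968), and in Cycle 2 for Oasl2 (0.887), Oas2 (0.861) and Ifit1 (0.86). It was below 0 in both Cycles for Irf3 (-0.769 and -0.267) and Ifit2 (-0.522 and -0.125). These correlations share the libraries and a common trend over time, and are a description.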

How the data were processed

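RNA of CF-1 MEFs was sequenced at hours around serum addition (TruSeq stranded mRNA, single-end 50-base reads, HiSeq 2500, 12 libraries per lane). Per the labels, the series' design text and the submitters' processing notes, reads were aligned with STAR to mm9 and counted over exons on both strands with HOMER (versions not given in the sources used here). The deposited signal values are gene values that the authors normalised to a common total. Of 96 columns 95 were used, and 1, whose name matches no sample title (Cycle 1, 12.5 h), was not analysed here. In 94.2% to 96.2% of low values per library the value was a whole multiple of 1 read (tolerance 0.02), too few for a count test; 3291 rows, 11 of the 40 genes among them, are averages over several transcripts.

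Values were analysed as log2(value + 1), all 15895 rows, with limma 3.58.1 in R 4.3.3 and Benjamini-Hochberg adjustment over all rows, called under 0.05. Window means per Cycle (5 windows, hours sampled in both Cycles) were compared with starved with Cycle as the replicate block, following the study's use of the -1 h and 0 h mean of the same Cycle. Samples of the same hour pair the Cycles only by the label, and over 406 pairs of hours their deviations correlated with a median of 0.303, all above 0 (lowest 0.00531). Starved libraries were compared between Cycles with a variance trend, chosen after simulated data showed that it was needed. On simulated data with 200 rows changed 3-fold, 200 were recovered at 4 to 8 h, 199 at any hour, 166 in the starved comparison and 182 in the difference in response, each of 15895 rows, with 55, 8, 3 and 8 false calls among 15495 unchanged rows. The simulated libraries were independent, with no correlation between neighbouring hours and only a small fixed offset per row between Cycles. These false calls therefore do not measure the error rate in the real data. TMM factors were unweighted trimmed means (30% of ratios, 5% of levels). Values in full were given for the 6 regulators, the 3 largest called changes per window and direction, the 5 largest starved differences and the 3 highest mean values; genes outside this rule were chosen after their values were seen. The genes and lists were chosen with earlier results of these data known. No precision beyond the spread between these libraries, which may be technical, can be given. Results of 1 further pathway gene are not reported here.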

Additional observations from a re-analysis of the deposited data

Results flagged for a closer look

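The response to serum differed between the Cycles for 38 of the 40 genes in a test of the difference itself (limma F test, adjusted p under 0.05), with the Cycle 2 change higher in each. The window with the largest difference, Cycle 2 change minus Cycle 1 change on the log2 scale, is given for each gene described in full. Among the antiviral effectors it was 5.952 for Ifit1 at 15 to 20 h, 5.772 for Mx2, 5.606 for Oas2 at 9 to 14 h, 4.449 for Ifit3 at 4 to 8 h and 1.126 for Ifit2 at 4 to 8 h. For the GTPases it was 4.611 for Gbp3, 3.59 for Gbp7 and 2.63 for Gbp2, all at 9 to 14 h. For the regulators it was 4.648 for Irf7 and 2.892 for Stat2 at 15 to 20 h, 2.419 for Irf9 at 9 to 14 h and 0.8521 for Irf1 at 4 to 8 h. It was 2.512 for Tap1 at 4 to 8 h, 1.29 for Ifitm3 at 15 to 20 h, and 0.9919 for B2m and 0.7834 for H2-D1 at 21 to 27 h. The Cycle cannot be told apart from anything else that differed between the time courses, and the starved levels that these differences are taken from differed as well.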

How the results depend on the processing

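With each library taken as a sample, which treats neighbouring hours as independent, 15, 30, 37, 39 and 39 genes were called in the 5 windows, 2 of the first 15 as higher, beside 8311, 9895, 9403, 9742 and 10106 of all 15895 rows. With log2(value + 10) 5 genes were called at 1 to 3 h. Without the replicate block 3, 6, 13, 16 and 23 genes were called in the windows and 25 at any hour, and it moved no count by over 1.5 times. The starved comparison gave 0 to 29 genes when 1 starved library was left out. Over the 31 hours paired by hour, an average over all hours that adds those after serum to the starved ones, 20 genes were called, and the difference of Oas2 became 0.63, of Ifit1 1.14, of Ifit3 0.093, of Gbp3 0.14 and of Mx2 0.94, against values below 0 in starved cells. Leaving out a Cycle leaves no residual degrees of freedom, so no test was run. Of the genes described in full, Stat2 lost its call in some windows with log2(value + 0.25), with TMM scaling or without the -1 h library of Cycle 2 (adjusted p between 0.0503 and 0.0639, limma), and Mx2 and Ifit1 at 15 to 20 h with log2(value + 0.25) (adjusted p = 0.0525 and 0.0517, limma). Irf1 at 1 to 3 h lost its call without the 0 h library of Cycle 2 (-0.82, adjusted p = 0.0942, limma). The cause was not tested. Depth limits Mx1, which was at 0 in 31 libraries.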

Other observations

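Among 57 further interferon-stimulated genes the same measures gave a similar picture. In starved cells the helicase gene Ddx60 stood at 209 and 235 in Cycle 1 and at 14.3 and 21.4 in Cycle 2, and the nucleotide kinase gene Cmpk2, a neighbour of Rsad2 in the genome, at 100.7 and 93.9 against 9.54 and 10.7. After serum Cmpk2 changed by -1.48 in Cycle 1 and 3.19 in Cycle 2 at 4 to 8 h, and the mean of both was not called (adjusted p = 0.547, limma). The median change of these 57 genes at 21 to 27 h was -2.86 in Cycle 1 and -1.03 in Cycle 2, and 35 were called lower (30.5% of all rows were). Among other transcription factors Prdm1, a repressor, rose by 4.25 at 1 to 3 h.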
